A study of Mus musculus with 6 samples.

Results

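Hemidesmosome plakins and epidermal laminins are described here as 8 genes: Dst, Plec and Cd151 of the hemidesmosome, and the laminin chain genes Lama3, Lamb3, Lama5, Lamb1 and Lamc1. They were chosen by symbol from the probe sets annotated to a single gene, and each had exactly 1 probe set, so 8 of the 19938 genes tested are described. The arrays measured RNA of keratinocytes, the cells that build the epidermis, taken from C57BL/6 mouse skin at E18.5, late in gestation, and cultured for 2 to 5 days with no calcium added. Each of the 3 groups had 2 arrays, and each array held RNA pooled from 2 mice. Ovol1/2 DKO arrays came from Ovol1-/- mice that were also Ovol2flox/- with K14-Cre. Arrays labelled Ovol1 KO came from Ovol1-/- mice with no Ovol2 allele or Cre stated. Control arrays came from mice with an Ovol2flox/+ allele and either Ovol1+/- or K14-Cre. K14-Cre deletes the floxed allele in cells that use the keratin 14 promoter, while Ovol1-/- and the Ovol2 null allele are present in every cell of the mouse. All samples carry a female label, and the study set out to find primary changes after loss of these related zinc finger transcription factors.

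Basal keratinocytes are anchored to the basement membrane by hemidesmosomes. In these junctions the integrin pair Itga6 and Itgb4, with the tetraspanin Cd151 and collagen XVII, binds laminin outside the cell. Inside, the plakins Plec and Dst tie the integrin and collagen XVII to keratin filaments. Each laminin is a trimer of an alpha, a beta and a gamma chain. Lama3 and Lamb3 encode chains of the laminin that hemidesmosomes bind, and Lama5, Lamb1 and Lamc1 encode a second laminin of the epidermal basement membrane.

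The checks of the labels bear on every direction below. On the log2(intensity + 16) scale, used for all levels below, Ovol1 was 5.96 and 6.22 in Ovol1/2 DKO, 10.75 and 9.80 in labelled Ovol1 KO and 9.64 and 9.95 in control. The Ovol1 signal thus went against the Ovol1 KO label, and the position of its probe set relative to the deleted part is not known here, so these arrays are called labelled Ovol1 KO throughout. Ovol2, the other targeted gene, was 7.63 and 7.50 in Ovol1/2 DKO, 7.88 and 8.38 in labelled Ovol1 KO and 8.37 and 6.97 in control. Its difference between Ovol1/2 DKO and control was -0.10 (SE 0.45), within the spread of the control arrays. The Ovol2 signal thus does not show the deletion that the label Ovol1/2 DKO states. Where the Ovol2 probe set lies relative to the deleted part is also not known here. Replicate 1 labelled Ovol1 KO and control replicate 1 had no Xist signal (4.54 and 4.43, at least 10.99 on the other arrays), and replicate 1 labelled Ovol1 KO alone carried the Y-linked Eif2s3y (13.80, at most 5.14 elsewhere). Array medians ran from an intensity of 103.3 to 109.8. Precision is limited by having 2 arrays a group, and nothing but the word biological says how separate the 2 arrays of a group are. All 13 keratinocyte markers lay above 6.20, a level near background, on every array, and so did all 8 genes described here.

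Of the group, 7 of the 8 genes read highest in Ovol1/2 DKO, with both arrays above all 4 other arrays, a pattern that 12.8% of all genes showed. The exception was Lama3. In Ovol1/2 DKO against control none of the 8 passed the test (limma, adjusted p under 0.05 over all genes), where 2.02% of all genes did, 0.622% on the higher and 1.40% on the lower side. In labelled Ovol1 KO against control none passed, against 0% of all genes. In Ovol1/2 DKO against labelled Ovol1 KO, Dst and Lamc1 rose and none fell, so 2 of 8 passed where 3.15% of all genes did, 1.24% on the higher and 1.91% on the lower side. These 3 comparisons share arrays and are not independent of each other. The mean levels of the 8 genes lay at the 79.5th to 97.9th percentile, while the shares of all genes include dim ones. With genes below the median level left out, 376 genes passed in Ovol1/2 DKO against control and 559 against labelled Ovol1 KO. In both, the share among brighter genes was thus higher than the share of all genes. In bulk RNA a higher level in each cell and a larger number of cells with that level cannot be told apart.

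**Figure D1:**
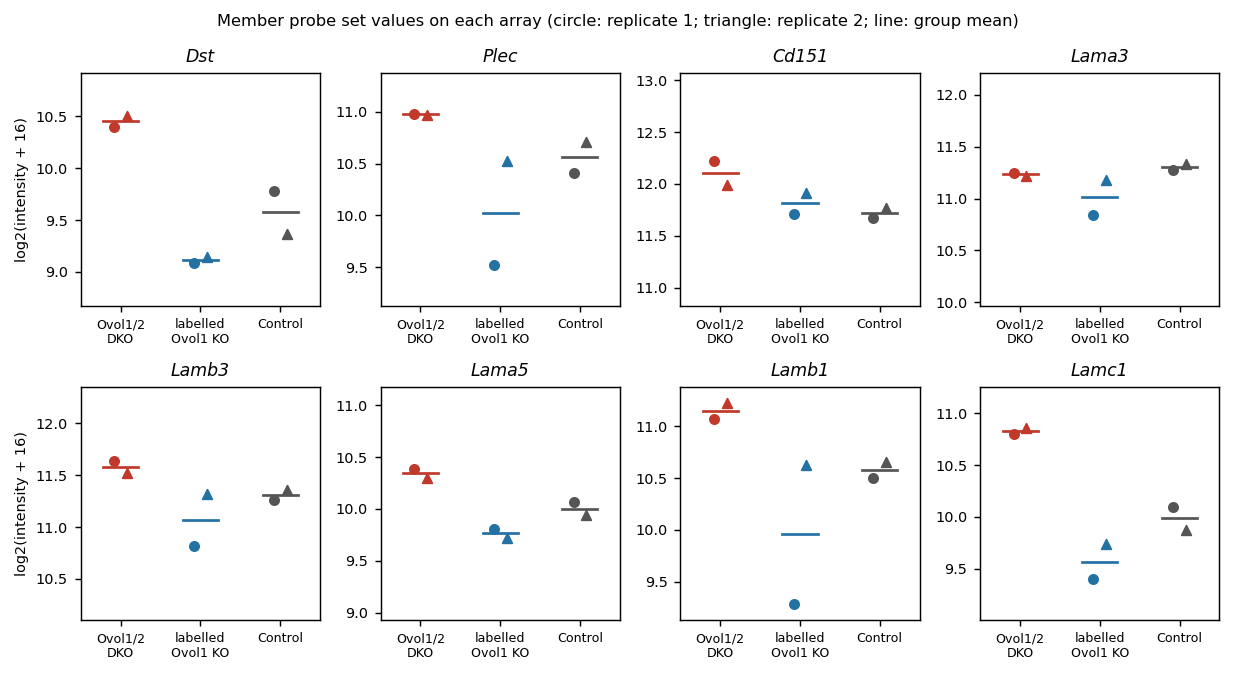
The log2(intensity + 16) of each member probe set on the 6 arrays is plotted by group, with circles for replicate 1, triangles for replicate 2 and a line at the group mean; every panel spans the same log2 range. The 2 Ovol1/2 DKO arrays lie above the other 4 arrays in every panel except Lama3, and the 2 arrays labelled Ovol1 KO lie far apart for Plec and Lamb1.

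Dst, the plakin that links collagen XVII and the integrin to keratin in its epithelial form, showed the widest spread of group means. Its levels were 10.40 and 10.50 in Ovol1/2 DKO, 9.09 and 9.14 in labelled Ovol1 KO and 9.78 and 9.37 in control. The 3 groups did not overlap, with Ovol1/2 DKO highest and labelled Ovol1 KO lowest. Dst was 2.52-fold higher in Ovol1/2 DKO than in labelled Ovol1 KO (1.34 on the log2 scale with an SE of 0.22 and 2 arrays a group, adjusted p = 0.0267 by limma). Against control the Ovol1/2 DKO difference was 0.88 (SE 0.22, 95% interval 0.36 to 1.39) and did not pass (limma adjusted p = 0.140). The labelled Ovol1 KO difference from control was -0.46 (SE 0.22, limma adjusted p = 0.999). The call against labelled Ovol1 KO was lost without any 1 of the 4 arrays compared, at differences of 1.28 to 1.39. Without both arrays that lacked Xist signal, the Dst difference was 1.31 from labelled Ovol1 KO and 1.08 from control. Each of those groups then held 1 array, and the within-group spread came from the 2 Ovol1/2 DKO arrays alone. Whether the differences hold cannot be judged from that fit.

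The Dst gene spans chromosome 1 from 33907888 to 34308662 (GRCm38.p6), and its probe set is annotated to 4 RefSeq mRNAs, so the epithelial form cannot be told apart from the other forms of the gene. RefSeq start sites with promoter windows (250 bases before and 50 after the start) were given for 5 of the 8 genes: Dst, Cd151, Lama5, Lamb3 and Lamb1. The windows were searched on both strands for CAGGTG, the E-box core that Zeb and Snail factors bind, and for CCGTTA, a core that Ovol factors bind. The E-box occurred in 20.21% of the 32851 windows of all genes, CCGTTA in 2.76% and both in 0.472%. Both Dst windows lie inside the gene's span, on the plus strand, and are shown because Dst had the widest spread and one of them held both motifs. Capitals mark the motifs, which do not overlap, and bases are counted from the 5′ end of the window. In the window at chr1:34011345-34011644 the E-box, read as CACCTG, occupies bases 114 to 119. In the window at chr1:34160010-34160309, CCGTTA occupies bases 231 to 236 and CACCTG bases 267 to 272.
Dst, first window: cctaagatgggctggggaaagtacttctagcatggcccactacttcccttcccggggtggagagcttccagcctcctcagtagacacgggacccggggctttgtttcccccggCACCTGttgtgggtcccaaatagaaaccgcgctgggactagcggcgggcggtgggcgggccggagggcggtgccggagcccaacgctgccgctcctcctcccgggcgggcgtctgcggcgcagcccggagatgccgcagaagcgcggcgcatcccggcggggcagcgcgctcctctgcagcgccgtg
Dst, second window: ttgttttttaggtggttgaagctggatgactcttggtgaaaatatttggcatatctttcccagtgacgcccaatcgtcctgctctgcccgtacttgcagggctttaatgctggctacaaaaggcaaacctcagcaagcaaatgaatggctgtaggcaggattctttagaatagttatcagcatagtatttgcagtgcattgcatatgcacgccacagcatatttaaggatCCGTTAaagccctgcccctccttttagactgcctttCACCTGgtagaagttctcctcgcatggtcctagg
A match is a description of the letters and not a measured binding site. Zeb1, an E-box repressor, stood at 11.06 and 11.03 in Ovol1/2 DKO, at 5.88 and 6.29 in labelled Ovol1 KO and at 6.06 and 6.13 in control. It rose in Ovol1/2 DKO by 4.95 against control (SE 0.21, limma adjusted p = 0.00257), and its binding was not measured.

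Plec encodes plectin, the plakin that binds the cytoplasmic tail of Itgb4 (chromosome 15, 76170974 to 76231378; 15 RefSeq mRNAs annotated to its probe set). Its levels were 10.98 and 10.97 in Ovol1/2 DKO, 9.52 and 10.53 in labelled Ovol1 KO and 10.41 and 10.71 in control. The Ovol1/2 DKO arrays were nearly equal and above the rest, while the arrays labelled Ovol1 KO lay 1.01 apart, a wider gap than 94.1% of genes had, and overlapped control. None of its differences passed: 0.41 for Ovol1/2 DKO minus control (SE 0.34, 95% interval -0.40 to 1.23), -0.54 for labelled Ovol1 KO minus control (SE 0.34) and 0.95 for Ovol1/2 DKO minus labelled Ovol1 KO (SE 0.34, limma adjusted p = 0.265). The last value rested on replicate 1 labelled Ovol1 KO: it was 0.45 without that array and 1.46, passing (limma adjusted p = 0.0464), without the other.

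Cd151 is the tetraspanin that associates with laminin-binding integrins (chromosome 7, 141467362 to 141471481). It read 12.22 and 11.99 in Ovol1/2 DKO, 11.71 and 11.91 in labelled Ovol1 KO and 11.67 and 11.77 in control. The Ovol1/2 DKO arrays were highest by a small margin, and the other groups overlapped. Its differences were 0.39 from control (SE 0.20, 95% interval -0.10 to 0.87) and 0.29 from labelled Ovol1 KO (SE 0.20), and neither passed (limma adjusted p = 0.671 and 0.610). It is the one gene of the 8 whose mean was lowest in control. One of its 2 promoter windows held an E-box and neither held CCGTTA.

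Lama3 and Lamb3 encode the alpha and beta chains of the laminin that hemidesmosomes bind. Lama3 lay at 11.25 and 11.22 in Ovol1/2 DKO, at 10.84 and 11.18 in labelled Ovol1 KO and at 11.28 and 11.33 in control. It is the one member with Ovol1/2 DKO below control, by -0.07 (SE 0.21, 95% interval -0.56 to 0.42), which did not pass. The 3 groups did not overlap, with control highest and labelled Ovol1 KO lowest (-0.29 from control, SE 0.21). Lamb3 lay at 11.64 and 11.52 in Ovol1/2 DKO, at 10.82 and 11.32 in labelled Ovol1 KO and at 11.26 and 11.36 in control. The Ovol1/2 DKO arrays of Lamb3 were above the rest, and the other groups overlapped. The Lamb3 difference was 0.27 from control (SE 0.23, 95% interval -0.28 to 0.82) and 0.51 from labelled Ovol1 KO (SE 0.23, limma adjusted p = 0.398), and neither passed. The second value was 0.26 without replicate 1 labelled Ovol1 KO and 0.76 without replicate 2.

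The promoter window of Lamb3 at chr1:193301993-193302292 (plus strand, within the gene at chromosome 1, 193294353 to 193343878) is shown because it held the E-box more than once, read as CACCTG at bases 245 to 250 and 255 to 260, marked in capitals. A second Lamb3 window, which overlaps it, held neither motif.
Lamb3: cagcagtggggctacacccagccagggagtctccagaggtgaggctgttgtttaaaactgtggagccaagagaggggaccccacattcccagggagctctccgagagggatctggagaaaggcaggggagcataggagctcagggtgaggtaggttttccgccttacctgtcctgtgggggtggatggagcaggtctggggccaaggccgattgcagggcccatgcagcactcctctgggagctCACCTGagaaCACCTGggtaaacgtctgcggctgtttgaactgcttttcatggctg
The Lama5 window at chr2:180225810-180226109 (minus strand) also held the E-box more than once, as CACCTG at bases 5 to 10 and CAGGTG at bases 65 to 70. The Lamb1 window at chr12:31265043-31265342 (plus strand) held neither motif, and is shown beside it as the chain of the same trimer without a match.
Lama5: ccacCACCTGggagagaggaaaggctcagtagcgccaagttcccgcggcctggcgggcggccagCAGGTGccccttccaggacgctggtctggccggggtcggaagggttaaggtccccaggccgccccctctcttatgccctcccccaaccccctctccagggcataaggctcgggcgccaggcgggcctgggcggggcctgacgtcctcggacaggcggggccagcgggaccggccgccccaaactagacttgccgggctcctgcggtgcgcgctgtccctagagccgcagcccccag
Lamb1: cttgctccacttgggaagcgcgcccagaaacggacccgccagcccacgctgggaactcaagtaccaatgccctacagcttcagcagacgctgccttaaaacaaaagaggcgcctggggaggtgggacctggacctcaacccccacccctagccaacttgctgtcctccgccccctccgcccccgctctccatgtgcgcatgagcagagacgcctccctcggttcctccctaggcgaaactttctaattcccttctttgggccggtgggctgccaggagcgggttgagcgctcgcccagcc
In all, 5 of the 8 windows of these genes held the E-box, in 4 of the 5 genes with a window, and 1 window held CCGTTA.

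Lama5, Lamb1 and Lamc1 encode the alpha, beta and gamma chains of a second basement membrane laminin. Lama5 (chromosome 2, 180176373 to 180225904) read 10.38 and 10.30 in Ovol1/2 DKO, 9.81 and 9.72 in labelled Ovol1 KO and 10.06 and 9.94 in control. Its groups did not overlap, in the same order as Dst. The differences were 0.34 from control (SE 0.19, 95% interval -0.11 to 0.79) and 0.58 from labelled Ovol1 KO (SE 0.19, limma adjusted p = 0.217), and neither passed. Lamb1 (chromosome 12, 31265146 to 31329644) read 11.07 and 11.22 in Ovol1/2 DKO, 9.29 and 10.63 in labelled Ovol1 KO and 10.50 and 10.65 in control. The Ovol1/2 DKO arrays were highest, and the arrays labelled Ovol1 KO lay 1.34 apart, a wider gap than 97.4% of genes had. The Lamb1 difference from labelled Ovol1 KO was 1.19 (SE 0.41, limma adjusted p = 0.250) and did not pass. It was 0.51 without replicate 1 labelled Ovol1 KO and 1.86, passing (limma adjusted p = 0.0246), without replicate 2. The difference from control was 0.57 (SE 0.41, 95% interval -0.42 to 1.56).

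Lamc1 is the gamma chain shared by many laminins (chromosome 1, 153218922 to 153332786). It lay at 10.80 and 10.86 in Ovol1/2 DKO, at 9.40 and 9.74 in labelled Ovol1 KO and at 10.09 and 9.88 in control. The 3 groups did not overlap, again with Ovol1/2 DKO highest and labelled Ovol1 KO lowest. Lamc1 was 2.39-fold higher in Ovol1/2 DKO than in labelled Ovol1 KO (1.26 on the log2 scale with an SE of 0.21 and 2 arrays a group, adjusted p = 0.0313 by limma). Against control its difference was 0.84 (SE 0.21, 95% interval 0.33 to 1.35), which did not pass (limma adjusted p = 0.150). The call against labelled Ovol1 KO was lost without replicate 1 labelled Ovol1 KO (1.09, adjusted p = 0.116), without either Ovol1/2 DKO array (1.29 and 1.23, adjusted p = 0.183 and 0.220) and under quantile normalization (1.19, adjusted p = 0.0635). Without both arrays lacking Xist signal the Lamc1 difference was 1.09, with only 1 array left in labelled Ovol1 KO.

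**Figure D2:**
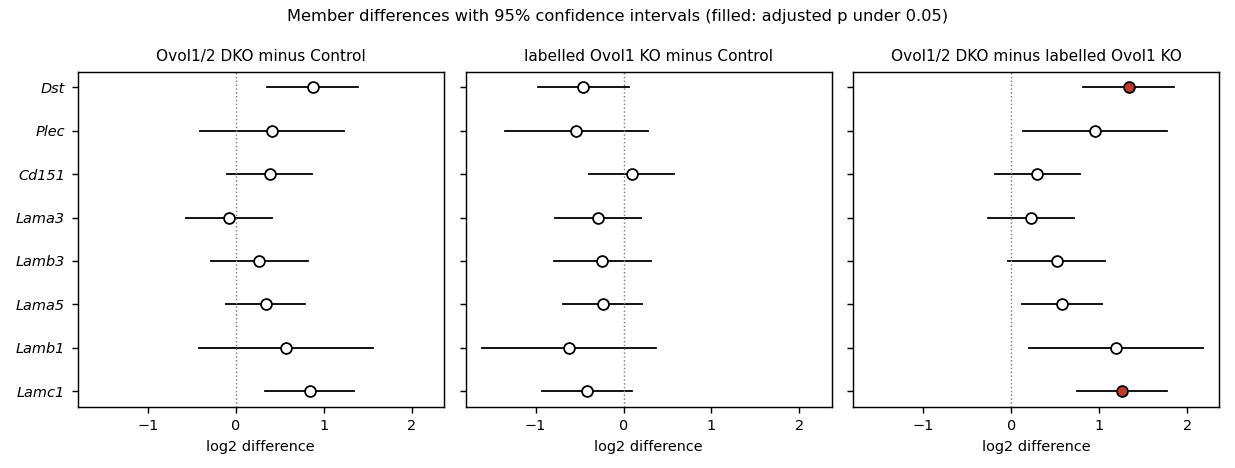
Log2 differences of the 8 genes are shown with 95% confidence intervals from the moderated fit, for Ovol1/2 DKO minus control, labelled Ovol1 KO minus control and Ovol1/2 DKO minus labelled Ovol1 KO; filled points passed at an adjusted p under 0.05. Only Dst (1.34) and Lamc1 (1.26) are filled, both in the last comparison.

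Across the 8 genes the differences in Ovol1/2 DKO against control ran from -0.07 to 0.88 with a median of 0.40, beside a median of 0.03 over all genes. At an unadjusted p under 0.05, 2 of the 8 (Dst and Lamc1) stood out, where 10.4% of all genes did. Both Ovol1/2 DKO arrays were above both control arrays for 7 genes and below for Lama3. Over all genes 39.2% had such non-overlapping arrays, 21.1% above and 18.1% below. In labelled Ovol1 KO against control the median was -0.36, beside -0.00 over all genes, with 7 differences below 0 and Cd151 at 0.09. Without replicate 1 labelled Ovol1 KO this median was -0.08, with 5 differences below 0. None had an unadjusted p under 0.05, where 0.767% of all genes did, and 4 genes (Dst, Lama3, Lama5 and Lamc1) had both labelled Ovol1 KO arrays below both control arrays while none had them above. Over all genes 19.1% had non-overlapping arrays here, 10.3% with labelled Ovol1 KO below. In Ovol1/2 DKO against labelled Ovol1 KO the median was 0.76 (0.48 without replicate 1 labelled Ovol1 KO), beside 0.02 over all genes, all 8 had non-overlapping arrays with Ovol1/2 DKO above (43.1% of all genes did not overlap, 24.6% with Ovol1/2 DKO above), and 5 had an unadjusted p under 0.05 (14.1% of all genes).

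The order of group means was Ovol1/2 DKO, control, labelled Ovol1 KO from high to low for 6 of the 8 genes, against 28.1% of all genes. The arrays of all 3 groups were fully apart for Dst, Lama5, Lamc1 and, with control highest, Lama3, 4 of 8 where 5.94% of all genes were. For Lama3 the gaps were small, with Ovol1/2 DKO -0.07 from control and 0.22 from labelled Ovol1 KO (SE 0.21 each). For Plec, Cd151, Lamb3 and Lamb1 labelled Ovol1 KO overlapped control. Replicate 1 labelled Ovol1 KO was the lowest of the 6 arrays for 6 of the 8 genes, all but Cd151 and Lama5, against 15.8% of all genes. That array also differs from its partner in Xist and Eif2s3y signal, and the part of this in the members' values was not tested.

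The other proteins of the hemidesmosome were read beside them. Of Itga6, Itgb4, Col17a1 (collagen XVII) and the basal keratins Krt5 and Krt14, none of 5 passed in any of the 3 comparisons. Col17a1 read 12.22 and 12.64 in Ovol1/2 DKO, 11.53 and 11.81 in labelled Ovol1 KO and 11.81 and 12.03 in control (0.51 from control, SE 0.24, and 0.76 from labelled Ovol1 KO, SE 0.24). Itga6 differed by 0.29 from control (SE 0.20) and 0.75 from labelled Ovol1 KO (SE 0.20, limma adjusted p = 0.131), and Itgb4 by 0.20 and 0.58 (SE 0.30 each). Itgb4 lay at 11.12 and 11.97 on the arrays labelled Ovol1 KO, and the 0.58 was 0.16 without replicate 1. All 5 had the same order of group means as Dst, an order that 28.1% of all genes had. In Ovol1/2 DKO Krt5 and Krt14 differed by 0.07 from control (SE 0.19 each), with 95% intervals of -0.38 to 0.51 and -0.37 to 0.52. In labelled Ovol1 KO they differed from control by -0.01 and -0.05 (SE 0.19 each), so their order rests on differences well within the SE. Their mean levels stood at percentiles 100 and 99.9 of all genes. Whether the arrays resolve differences at such levels was not tested. The medians of the list were 0.20 from control and 0.58 from labelled Ovol1 KO, and the last was likewise 0.16 without replicate 1 labelled Ovol1 KO. Among the 13 keratinocyte markers, Cdh1 and Epcam fell in Ovol1/2 DKO against both other groups (-1.57 and -3.28 from control). Trp63, a transcription factor of basal keratinocytes, was 2.14-fold higher in Ovol1/2 DKO than in labelled Ovol1 KO (limma adjusted p = 0.0464). Its difference from control was 0.93 (SE 0.21) and did not pass (limma adjusted p = 0.102).

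Of 5 other laminin chains measured, none passed in any comparison, and 4 were above 6.20 on every array. None had both Ovol1/2 DKO arrays above all others, a pattern that 12.8% of all genes showed. With 5 genes, that count cannot be told apart from the share of all genes. Lama1, Lama2 and Lamc3 differed from control by -0.11 (SE 0.20), -0.09 (SE 0.31) and 0.00 (SE 0.26), and Lamb2 by 0.25 (SE 0.29). Lama4, a chain of mesenchymal and vascular laminins, read 8.26 and 9.83 in Ovol1/2 DKO, 7.40 and 8.56 in labelled Ovol1 KO and 7.55 and 8.35 in control. It was higher in replicate 2 of every group, and its difference of 1.09 from control (SE 0.61) did not pass and was 0.31 without Ovol1/2 DKO replicate 2.

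Among 5 other plakins, 4 had both Ovol1/2 DKO arrays below both control arrays and none had them above. Over all genes 18.1% had them below and 21.1% above. Evpl, envoplakin of the cornified envelope, fell in Ovol1/2 DKO against control (-2.25, SE 0.20, limma adjusted p = 0.00755) and against labelled Ovol1 KO (-2.49, SE 0.20, limma adjusted p = 0.00477), and was the 1 of 5 to pass in the first comparison. It read 6.75 and 6.63 in Ovol1/2 DKO, 9.19 and 9.16 in labelled Ovol1 KO and 8.79 and 9.10 in control, with no overlap between Ovol1/2 DKO and the rest. Its partner Ppl, periplakin, was the other plakin to fall against labelled Ovol1 KO (-2.61, SE 0.46, limma adjusted p = 0.0357) and differed from control by -2.16 (SE 0.46, limma adjusted p = 0.0857). Macf1, Dsp and Eppk1 differed from control by -0.43 (SE 0.21), -0.37 (SE 0.20) and 0.27 (SE 0.28), and did not pass. The median of these 5 was -0.43 from control. A difference between the member plakins and these was not tested as such.

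**Figure D3:**
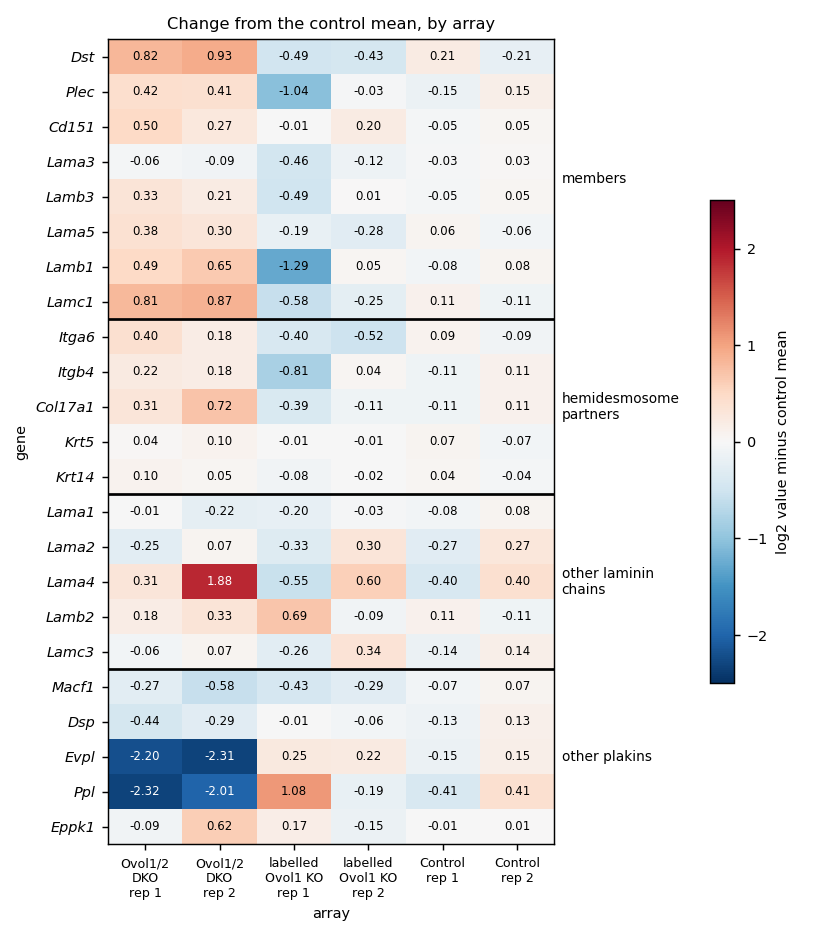
Each cell gives a gene's log2 value on 1 array minus its control mean, for the 8 members, 5 hemidesmosome partners, 5 other laminin chains and 5 other plakins (red above, blue below the control mean). Dst and Lamc1 stand 0.81 to 0.93 above the control mean on the Ovol1/2 DKO arrays, while Evpl and Ppl stand at -2.32 to -2.01.

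Laminin receptors, basement membrane partners and processing enzymes each held 1 gene that rose in Ovol1/2 DKO against control. Of 8 other laminin receptors it was the integrin Itga7 (1.71, SE 0.28, limma adjusted p = 0.0373; 2.09 against labelled Ovol1 KO, limma adjusted p = 0.0153), and the list median was 0.21. Of 20 other basement membrane components it was Sparc, a collagen-binding matrix glycoprotein (1.65, SE 0.23, limma adjusted p = 0.0235; 2.03 against labelled Ovol1 KO, limma adjusted p = 0.0106), with a list median of 0.11. Sparc read 13.06 and 13.15 in Ovol1/2 DKO, 10.92 and 11.24 in labelled Ovol1 KO and 11.65 and 11.25 in control. Of 9 proteases that process laminin chains or activate such enzymes it was Tll1, a protease of the Bmp1 family (3.12, SE 0.38, limma adjusted p = 0.0159; 4.08 against labelled Ovol1 KO, limma adjusted p = 0.00654). Tll1 read 10.91 and 11.29 in Ovol1/2 DKO, 6.53 and 7.51 in labelled Ovol1 KO and 8.29 and 7.68 in control, and the list median was 0.24, or -0.01 without Ovol1/2 DKO replicate 2. In none of these lists did a gene fall by the test, and in the comparison with labelled Ovol1 KO the same gene of each list was again the one that passed. Of 9 other tetraspanins none passed, with a median of -0.07 from control. The smallest p values against control belonged to Tspan1 (-2.95, SE 1.22) and Cd63 (0.29, SE 0.19). Tspan1 was below 6.20 in both Ovol1/2 DKO arrays (4.76 and 5.12) and in control replicate 1 (5.71) but not in control replicate 2 (10.07), and its difference was -0.77 without control replicate 2 and -5.13 without control replicate 1. None of these lists held a gene that passed in labelled Ovol1 KO against control.

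Laminin chains are also made by cells other than keratinocytes, and their markers were read on the same arrays. The mean level of 11 fibroblast markers was 7.12 and 7.74 in Ovol1/2 DKO, 6.74 and 7.47 in labelled Ovol1 KO and 6.62 and 7.46 in control. It was higher in replicate 2 of each group, and 8 of the 11 were above 6.20 on every array while Lum was below it on every array. Thy1 was the 1 fibroblast marker to pass (1.67 from control, SE 0.22, and 1.90 from labelled Ovol1 KO), and Col1a1 differed from control by 0.42 (SE 0.37). Of the 11 in Ovol1/2 DKO, 8 differed from control upward and 3 downward, with a median of 0.07. These differences ran from -0.66 (Pdgfra, SE 0.47) to 2.22 (Postn, SE 0.67). Against labelled Ovol1 KO 6 differed upward and 5 downward, with a median of 0.01. The 8 endothelial markers averaged 6.63 and 6.60 in Ovol1/2 DKO, 6.42 and 6.48 in labelled Ovol1 KO and 6.67 and 6.61 in control. Among them Pecam1 rose against labelled Ovol1 KO (1.28, SE 0.19, limma adjusted p = 0.0204), while Cdh5, Tek and Emcn were below 6.20 on every array. Kdr, a receptor of endothelial cells, read 7.82 and 7.83 in Ovol1/2 DKO, 7.96 and 7.84 in labelled Ovol1 KO and 9.19 and 8.77 in control. Its differences from control were -1.15 and -1.08 (SE 0.22 each), and neither passed (limma adjusted p = 0.0598 and 0.999). Of the 8 endothelial markers 4 differed from control upward and 4 downward in Ovol1/2 DKO, with a median of -0.01. No marker of the melanocyte, Schwann, muscle or leukocyte lists passed in any comparison, with list medians against control of -0.95, 0.12, 0.12 and -0.12. The part of other cells in the values of Lamb1, Lamc1 and Dst was not tested.

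The genes most like the members over the 6 arrays were taken from 9664 candidates by Pearson's r, as a description: all points come from the same 6 arrays in 3 groups. Dst was followed most closely by Sh3bgrl (0.995), the focal adhesion protein Rsu1 (0.994), the UDP-glucose dehydrogenase Ugdh (0.993), the lipid kinase Pip4k2a (0.993) and the scaffold Iqgap2 (0.992). Iqgap2 read 9.60 and 9.38 in Ovol1/2 DKO, 6.08 and 6.33 in labelled Ovol1 KO and 7.80 and 6.52 in control, with the same order as Dst and a wider span. Plec and Lamb1 shared the same nearest gene, Dpysl2 (0.994 and 0.992), which like them was lowest in replicate 1 labelled Ovol1 KO (10.31, against 11.31 in replicate 2). The nearest genes of the others were Pgghg for Cd151 (0.984), Trip10 for Lama3 (0.996), Zfp334 for Lama5 (0.994), the histone deacetylase Hdac1 for Lamb3 (0.990) and the peroxiredoxin Prdx4 for Lamc1 (0.996).

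**Figure D4:**
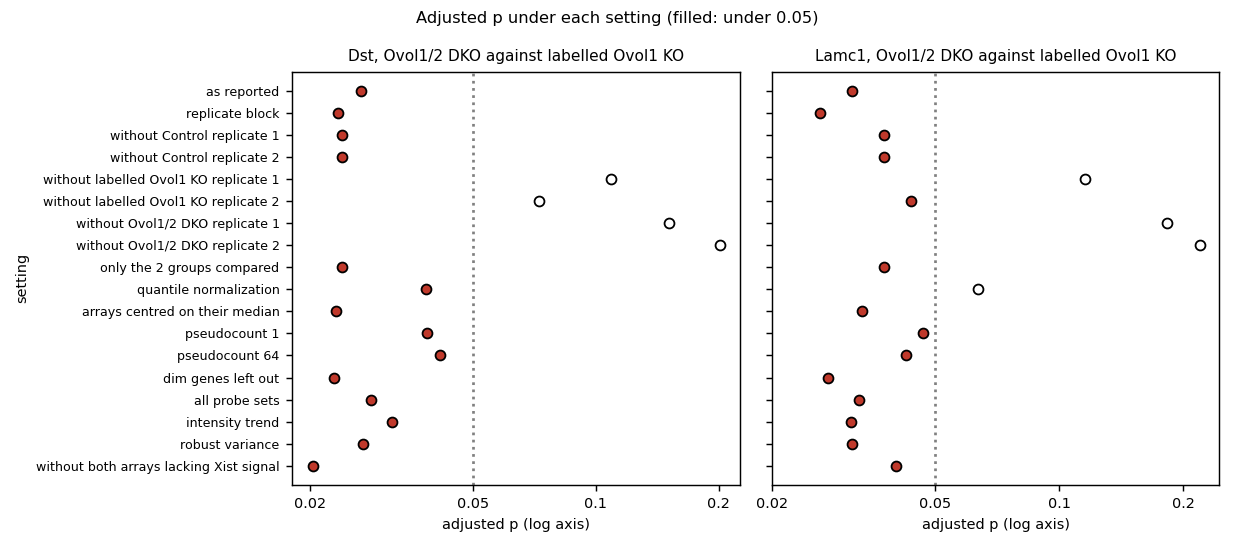
The adjusted p of Dst (left) and Lamc1 (right) in Ovol1/2 DKO against labelled Ovol1 KO is plotted on a log axis under each setting, with the threshold of 0.05 dotted and passing values filled. Dst lies above the threshold when any 1 of the 4 arrays compared is left out, and Lamc1 without replicate 1 labelled Ovol1 KO, without either Ovol1/2 DKO array and under quantile normalization.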

How the data were processed

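The authors deposited 1 linear intensity per probe set for each of 6 one-colour Affymetrix arrays. Affymetrix Expression Console 1.1.1 and PLIER 2.0 are named in the submitters' processing notes, while how background was corrected and values normalized was not given in the sources used here. RNA was amplified with random primers over whole transcripts, per the labels' protocols. Of 35556 probe sets, 21789 had 1 gene symbol, 1621 had several and were not named, and 12146 are unnamed here. Symbols were checked by Entrez identifier against RefSeq (GRCm38.p6), where 91 identifiers had no match. The probe set with the highest mean was kept for 999 genes with several, leaving 19938 genes.

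Values were taken as log2(intensity + 16), so that changes of dim genes are understated. The 3 comparisons came from a single fit of the 6 arrays with lmFit and eBayes (limma 3.58.1, R 4.3.3; 3 residual and 3.68 prior degrees of freedom), with Benjamini-Hochberg adjustment over all genes and a threshold of 0.05. Standard errors and intervals are those of this fit. With 2 arrays against 2, an exact test cannot give a two-sided p under 0.333, so p-values rest on a spread pooled over genes and groups and may measure technical spread. The level near background (6.20) is the highest array median of unnamed probe sets.

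The members and lists were chosen with earlier results of these data known. Named were all members, hemidesmosome partners and other laminin chains. Of each other list, up to 4 genes that passed against control were named, or the 2 with the smallest p where none passed. Ppl, Macf1, Dsp, Eppk1, Zeb1, Ovol2 and the markers named were chosen after their values were seen. Genes compared for likeness had a mean of at least 7.56, the median gene's level. Promoter windows and their coordinates are from RefSeq (GRCm38.p6).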

Additional observations from a re-analysis of the deposited data

How the results depend on the processing

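No member passed in labelled Ovol1 KO against control under any of the 17 alternatives, and none in Ovol1/2 DKO against control except Dst without both arrays lacking Xist signal (1 member called; this alternative was added with the data in view). In Ovol1/2 DKO against labelled Ovol1 KO, leaving out 1 array gave 0 to 3 members called, against 2 with all arrays, and quantile normalization gave 1. A group left with 1 array was assumed to vary like the others. Without both arrays lacking Xist signal, the within-group spread came from the 2 Ovol1/2 DKO arrays alone. No called difference changed sign. The sign of an uncalled one changed without 1 array labelled Ovol1 KO for Cd151 (-0.01), Lamb1 (0.05) and Lamb3 (0.01) against control. Replicate numbers are shared by the groups, and deviations of same-numbered arrays from their group means correlated across genes at 0.194 to 0.490, but no label ties a number to a shared day or litter. With replicate number as a block 2 members passed against labelled Ovol1 KO (Dst, adjusted p = 0.0233, and Lamc1, adjusted p = 0.0263) and 0 in the other comparisons.

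The share of all genes that passed moved with the arrays. Of 403 genes for Ovol1/2 DKO against control, the count became 597 with the block, 109 and 99 without Ovol1/2 DKO replicate 1 or 2, 152 without the second control array, 155 with a pseudocount of 64 and 1395 without both arrays lacking Xist signal. Of 628 for Ovol1/2 DKO against labelled Ovol1 KO, it became 1022 with the block, 135 without replicate 1 labelled Ovol1 KO, 182 and 154 without Ovol1/2 DKO replicate 1 or 2, 311 with a pseudocount of 64 and 1508 without both arrays lacking Xist signal. For labelled Ovol1 KO against control it was 0, but 3 without replicate 2 labelled Ovol1 KO and 20 without both arrays lacking Xist signal. The cause was not tested.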
